A study of Mus musculus with 9 samples.

Results

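Semaphorins, their plexin receptors and the neuropilin co-receptors were followed through the culture of mouse pneumospheres, spheres that grow from dissociated embryonic lung. The genes were taken by symbol from the count table, as protein-coding members of semaphorin classes 3 to 7, plexins A to D and neuropilins 1 and 2. The rule found 31 of the 27179 gene IDs in the table, namely 20 semaphorins, 9 plexins and 2 neuropilins, and all 31 had enough counts to be tested.

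The series sampled cultures of C57/B6 lungs taken at E11.5, and each of day 3, day 7 and day 10 has 3 libraries. The lungs were dissociated with trypsin, and cells that did not attach to ordinary plastic within 1 hour were grown in suspension with bFGF, EGF and heparin under 5% O2 and 10% CO2. Cultures were split on day 3 and day 7, so the groups differ in time and in passage together, and no agent or allele separates them. The labels do not give the cultures or litters behind the replicates, so p-values measure only the spread between these samples, which may be technical.

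Semaphorins are ligands best known as repulsive cues for growing axons and migrating cells. Class 3 members are secreted and mostly bind a neuropilin, which holds them against a plexin that carries the signal through its cytoplasmic GTPase-activating domain. Classes 4 to 7 are tethered to the membrane and mostly bind plexins directly. In the developing lung these genes are known from vessel patterning, innervation and airway branching.

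Library totals ran from 20716878 to 30466712 counts, and 3 counts in a library, the floor for a count of 0, correspond to 0.0985 to 0.145 CPM (read counts scaled to library size). The cultures were described as enriched for epithelium, but the defining epithelial markers Nkx2-1 and Foxa1 had 0 counts in every library. The 9 epithelial markers together summed to 1.13 to 1.94 CPM on day 3, 0.039 to 0.535 CPM on day 7 and 0.106 to 0.320 CPM on day 10. The 12 mesenchyme markers summed to 14634 to 16390 CPM on day 3, 28199 to 33763 CPM on day 7 and 43319 to 48820 CPM on day 10. On day 10, 9 of them were higher than on day 3 and 3 were lower (Tcf21, Tbx4 and Tbx5). Marker levels of other cell types also moved. The 5 smooth muscle markers summed to 231 to 247, 444 to 563 and 405 to 813 CPM on days 3, 7 and 10. Of these 5, 3 were higher and 0 lower on day 10 than on day 3. The 10 neural crest, neuron and glia markers summed to 144 to 191, 20.9 to 28.0 and 13.4 to 16.4 CPM on days 3, 7 and 10, with 8 of 9 tested markers lower on day 10 than on day 3. The 8 endothelial markers summed to 181 to 219, 246 to 341 and 127 to 141 CPM on those days, with 3 of 8 lower on day 10. Erythroid markers fell to 0.423 to 1.08 CPM on day 10, against 1060.0 to 1264 CPM on day 3, and 3 of 3 tested mesothelial markers were lower on day 10. In bulk RNA, fewer cells of a type and less RNA per cell cannot be told apart, and the part of these markers in the changes below was not tested. Day 3 replicate 2, in which 1 gene ID held 6.79% of the counts, and day 10 replicate 3 stood apart from the other libraries of their day, with chi-square statistics of 109 and 127 per degree of freedom against the other day 3 libraries, which gave 8.05 with each other, and of 47.9 and 60.3 against the other day 10 libraries, which gave 28.8. Results that depend on 1 library are given with and without it.

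Members of the family changed in both directions between day 3 and day 10. On day 10, 12 of 31 members (38.7%) were higher and 9 (29.0%) were lower than on day 3, with edgeR's quasi-likelihood test and Benjamini-Hochberg adjustment over all genes at 0.05. Among all 14940 tested genes 29.5% were higher and 27.2% lower, so the shares of members called lay near or somewhat above the background. A change of at least 2-fold was more frequent: 9 members (29.0%) were called and at least 2-fold higher, beside 12.7% of all genes, and 6 members (19.4%) were called and at least 2-fold lower, beside 9.10%. The libraries of the 2 days did not overlap for 14 members that were higher (45.2%, all genes 32.5%) and for 9 that were lower (29.0%, all genes 31.9%). The median change was 0.00 on the log2 scale for members and for all genes, and the median absolute log2 change was 0.90 for members and 0.43 for all genes. Of the members at least 2-fold higher, Sema3b, Sema3e, Sema3g and Sema4a averaged only 1.58 to 2.27 CPM on day 10. Sema4f, among those lower, averaged 0.309 CPM. The calls of Sema3g, Sema4f and Plxna4 were lost in some alternatives. Members and all genes were not matched by level, and the part of low counts in these differences was not tested.

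Calls in both directions were already present on day 7. On day 7, 8 members (25.8%) were higher and 8 (25.8%) were lower than on day 3, beside 22.8% and 19.0% of all genes. From day 7 to day 10, 2 members (6.45%) rose and 4 (12.9%) fell, beside 4.41% and 4.10% of all genes. A test of whether the second step (day 10 minus day 7, 3 days) differed from the first (day 7 minus day 3, 4 days) called 2 members positive, Sema3a and Plxnc1 (6.45%, all genes 2.06%), and 4 negative, Sema3d, Sema3f, Sema6a and Sema7a (12.9%, all genes 5.96%). The 3 comparisons share libraries, and their calls are therefore not independent of each other. The 95% intervals of all members, which are normal intervals and narrower than the test implies, are shown in the plot of log2 changes by comparison.

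**Figure D1:**
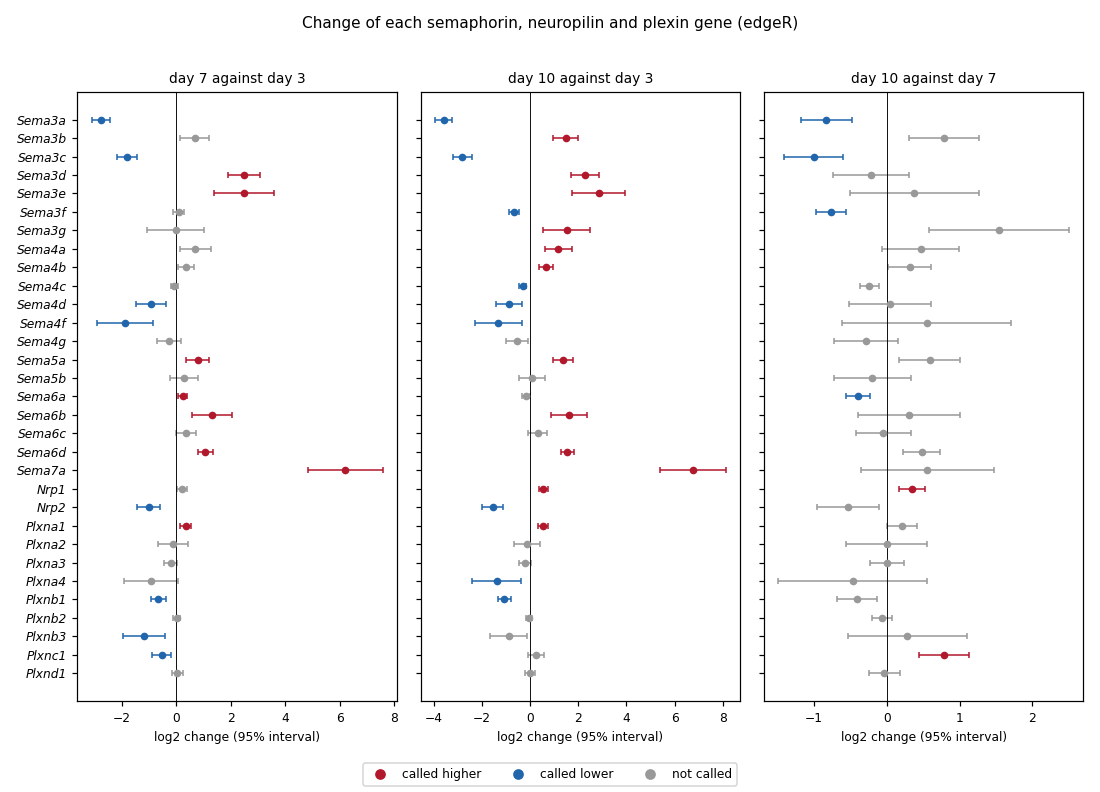
The log2 change of each of the 31 genes is plotted with its 95% interval in 3 panels (day 7 against day 3, day 10 against day 3 and day 10 against day 7), red where called higher, blue where called lower and grey where not called; the panels have their own horizontal scales. Sema7a stands far to the right in both comparisons with day 3 (6.20 and 6.76), Sema3a and Sema3c are on the left in all 3 panels, and most genes are grey in the last panel.

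Class 3, the secreted ligands, split by gene. All 7 members were called between day 10 and day 3, 3 of them lower (Sema3a, Sema3c and Sema3f) and 4 higher (Sema3b, Sema3d, Sema3e and Sema3g), beside 27.2% of all genes lower and 29.5% higher. Their summed level was 280 ± 19.4 CPM on day 3, then 223 ± 15.5 on day 7 and 138 ± 17.2 on day 10 (mean ± SD, n = 3 libraries a day here and below). Sema3d, Sema3a, Sema3e and Sema3c lie in that order within 1 stretch of chromosome 5 of GRCm38, all on the + strand (Sema3d 12383161 to 12588953, Sema3a 13124822 to 13603485, Sema3e 14025276 to 14256689, Sema3c 17574816 to 17730268). Sema3a and Sema3c fell during culture, and Sema3d and Sema3e rose.

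Because these neighbours moved in opposite directions, the 250 bases before the RefSeq start are shown for 3 of them, Sema3a (chr5:13396534-13396783, + strand), Sema3d (chr5:12382916-12383165, + strand) and Sema3e (chr5:14025026-14025275, + strand), from RefSeq on GRCm38.p6. Capitals mark the GC box, GGGCGG or its reverse complement CCGCCC. None of the 3 windows overlaps an exon of GENCODE M21; the start used for Sema3a lies inside its longer RefSeq gene model.
Sema3a: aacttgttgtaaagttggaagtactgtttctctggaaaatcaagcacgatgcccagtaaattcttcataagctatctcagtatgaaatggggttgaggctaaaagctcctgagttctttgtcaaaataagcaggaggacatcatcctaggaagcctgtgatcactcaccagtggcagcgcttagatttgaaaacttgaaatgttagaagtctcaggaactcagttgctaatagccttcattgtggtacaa
Sema3d: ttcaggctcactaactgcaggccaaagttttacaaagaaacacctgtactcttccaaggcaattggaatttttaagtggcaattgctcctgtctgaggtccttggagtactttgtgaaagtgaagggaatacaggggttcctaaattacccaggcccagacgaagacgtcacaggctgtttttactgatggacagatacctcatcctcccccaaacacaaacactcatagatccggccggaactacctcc
Sema3e: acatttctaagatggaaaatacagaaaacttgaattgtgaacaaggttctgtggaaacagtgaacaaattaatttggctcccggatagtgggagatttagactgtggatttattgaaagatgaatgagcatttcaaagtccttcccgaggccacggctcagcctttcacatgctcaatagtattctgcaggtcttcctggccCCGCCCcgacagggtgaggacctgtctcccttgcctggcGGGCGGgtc
Sema3a, which fell, and Sema3d, which rose, had 0 GC boxes and 2 and 4 CpG dinucleotides in these windows. Sema3e had 2 GC boxes and 7 CpG. The window of Sema3c, which fell, had 3 GC boxes and 39 CpG and is not printed because it lies within GENCODE M21 exons. The median over 32851 RefSeq promoter windows of this length was 6 CpG, and 32.7% of them hold a GC box. RefSeq windows were matched for 26 of the 31 members, not for Plxna1, Plxna4, Sema3b, Sema3f or Sema6a, and 27 of the 37 windows of the 26 (73.0%) hold a GC box. The TATA motif TATAAA, searched on both strands, is in 0 of the 37, beside 12.4% of all windows. The 37 windows count some genes more than once, among them Sema4a and Sema4d, and some lie within exons. All windows were taken without a filter on gene type and were not matched to the members by CpG content. These shares therefore do not measure an enrichment in the family. These matches are descriptions of letters and not of binding.

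Sema3a, the ligand that founded the class and repels axons and endothelial cells through neuropilin 1, had the largest fall among the members. It stood at 92.7, 84.9 and 68.0 CPM in the day 3 libraries, at 12.2, 11.2 and 12.7 on day 7 and at 7.19, 4.92 and 8.12 on day 10. All 3 days were separate, and the level fell at each step. The log2 change was -2.77 (SE 0.17, adjusted p = 3.67e-06) on day 7 against day 3 and -3.60 (SE 0.18, adjusted p = 4.77e-07) on day 10 against day 3. The second step was smaller than the first, at -0.83 (SE 0.18, adjusted p = 0.0224), and the difference between the steps was 1.93 (SE 0.31, adjusted p = 0.00495). The second fall of Sema3a missed the threshold without any 1 of the day 7 libraries (adjusted p = 0.0556, 0.0617 and 0.0688) and in a fit of the 2 days alone (0.0763).

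Sema3c, which in mouse is known for guiding neural crest cells into the outflow tract of the heart and binds both neuropilins and plexin D1, also fell. Its libraries held 17.6, 16.5 and 12.1 on day 3, 3.65, 4.53 and 4.92 on day 7 and 2.58, 1.80 and 2.15 CPM on day 10, with no overlap between days. The log2 change on day 10 against day 3 was -2.82 (SE 0.21, adjusted p = 3.43e-06). The step from day 7 to day 10 was -1.01 (SE 0.21, adjusted p = 0.0198) for Sema3c. Its call was lost without day 7 replicate 2 (adjusted p = 0.0689) or day 7 replicate 3 (0.0620), and in a fit of the 2 days alone. The neural crest, neuron and glia markers were lower on the same days (13.4 to 16.4 CPM on day 10, against 144 to 191 CPM on day 3), and their part in the falls of Sema3a and Sema3c was not tested.

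Sema3f, which signals through neuropilin 2, was by far the most abundant class 3 transcript on each day once levels were taken per kilobase of exon. It held 75.5% ± 2.75, 91.1% ± 0.908 and 87.9% ± 3.01 of the class on days 3, 7 and 10 with GENCODE M21 basic exons, and between 79.9% and 90.8% with the comprehensive set. Its CPM were 183, 176 and 176 on day 3, 189, 205 and 173 on day 7 and 118, 121 and 93.6 on day 10. Days 3 and 7 overlapped (log2 change 0.08, 95% interval -0.12 to 0.29), and the day 10 libraries lay below both. The fall from day 7 to day 10 was -0.77 (SE 0.10, adjusted p = 0.00401) and held in each alternative that was run. The difference between the 2 steps of Sema3f, -0.85 (SE 0.17, adjusted p = 0.0165), was lost without day 7 replicate 1 (adjusted p = 0.0675) or replicate 2 (0.0764).

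Sema3d, another secreted ligand, known from patterning of the pulmonary veins in mouse, moved the other way. It stood at 2.63, 2.88 and 1.98 CPM on day 3, then 14.8, 13.9 and 13.2 on day 7 and 18.5, 8.57 and 9.18 on day 10. The 3 day 7 libraries and the 3 day 10 libraries lay above day 3, and days 7 and 10 overlapped. The log2 change was 2.48 (SE 0.30, adjusted p = 0.000173) on day 7 and 2.26 (SE 0.30, adjusted p = 0.000153) on day 10, both against day 3. From day 7 to day 10 the change of Sema3d was -0.22 (SE 0.27, adjusted p = 0.667), and -0.66 (adjusted p = 0.0389) without day 10 replicate 1, the highest library.

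The other 3 class 3 members that rose stayed below 4 CPM. Sema3e, which binds plexin D1 without a neuropilin and restrains vessel growth, had 5 to 12 counts in the day 3 libraries, 36 to 61 on day 7 and 20 to 100 on day 10. In CPM it was 2.20 ± 1.37 on day 10 and 0.301 ± 0.160 on day 3, a log2 change of 2.85 (SE 0.56, adjusted p = 0.00169), and the libraries of these 2 days did not overlap. Without day 3 replicate 2 and day 10 replicate 3 together the change of Sema3e was 2.07 (adjusted p = 0.0167). Sema3b averaged 1.58 ± 0.236 CPM on day 10 and 0.566 ± 0.0802 on day 3 (log2 change 1.47, SE 0.26, adjusted p = 0.000894); its RefSeq gene model overlaps the protein-coding gene Lsmem2, which held 49 counts over all libraries, and whether counting used strand is not given in the sources used here. Sema3g averaged 2.21 ± 0.952 CPM on day 10 and 0.760 ± 0.281 on day 3 (log2 change 1.51, SE 0.50, adjusted p = 0.0246). The call of Sema3g was lost without day 3 replicate 2 or 3 or day 10 replicate 1 or 2, with adjusted p between 0.0538 and 0.0856.

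**Figure D2:**
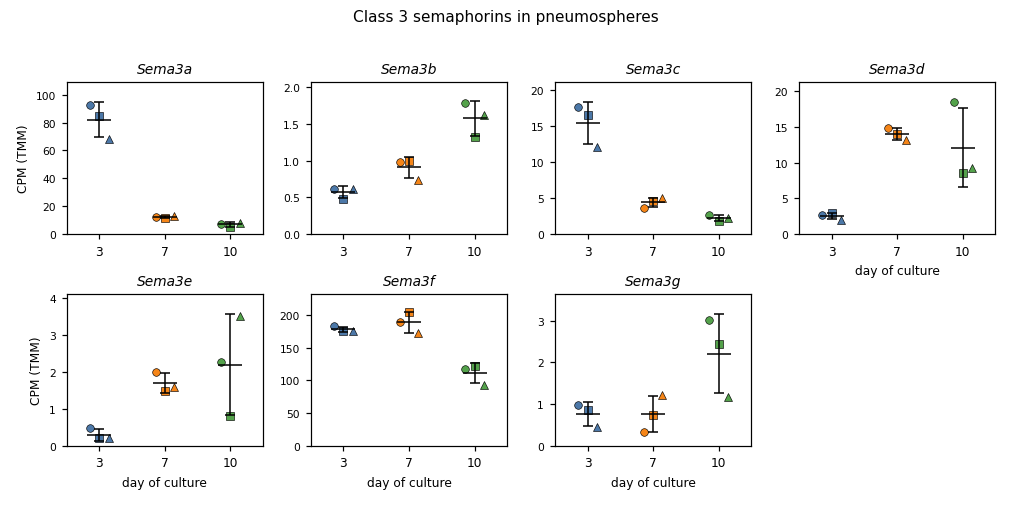
TMM-normalised CPM (vertical axis from 0, own scale per gene) of the 7 class 3 semaphorins are plotted against day of culture; circles, squares and triangles are replicates 1, 2 and 3, and the horizontal line with bars is the mean ± SD. Sema3a and Sema3c drop at each step, Sema3d and Sema3e are lowest on day 3, and Sema3f is lower on day 10 than on the other days.

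Class 7 has 1 gene in the mouse, Sema7a, whose product is held in the membrane by a glycolipid anchor and binds plexin C1 and integrin beta 1. It had the largest change of the family. The day 3 libraries held 21, 7 and 15 counts (0.850, 0.276 and 0.661 CPM), the day 7 libraries 1296, 959 and 1278 (42.6, 39.5 and 49.9 CPM) and the day 10 libraries 2380, 1302 and 681 (118, 52.1 and 24.0 CPM). The 3 day 7 libraries were close to each other, whereas the day 10 libraries spanned values on both sides of them. The fitted fold was 73.7 on day 7 and 108 on day 10, both against day 3 (adjusted p = 0.000190 and 6.01e-05). From day 7 to day 10 the log2 change was 0.55 (SE 0.47, 95% interval -0.36 to 1.47, adjusted p = 0.520), and it was -0.21 without day 10 replicate 1 and 0.95 without day 10 replicate 3. The 2 steps of Sema7a differed by -5.65 (SE 0.94, adjusted p = 0.00866), -6.42 without day 10 replicate 1. Per kilobase of exon Sema7a held 0.111% ± 0.0539 of all semaphorin signal on day 3, 7.05% ± 0.689 on day 7 and 10.6% ± 6.83 on day 10 (basic exons).

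The windows before the starts of Sema7a (chr9:57939862-57940111, + strand) and Sema6d (chr2:124089719-124089968, + strand) are shown because these 2 membrane semaphorins rose with the smallest adjusted p in the comparison of day 10 with day 3. They come from RefSeq on GRCm38.p6, capitals again mark the GC box, and neither window overlaps an exon of GENCODE M21. The Sema7a window lies inside its longer RefSeq gene model, which starts at 57939596.
Sema7a: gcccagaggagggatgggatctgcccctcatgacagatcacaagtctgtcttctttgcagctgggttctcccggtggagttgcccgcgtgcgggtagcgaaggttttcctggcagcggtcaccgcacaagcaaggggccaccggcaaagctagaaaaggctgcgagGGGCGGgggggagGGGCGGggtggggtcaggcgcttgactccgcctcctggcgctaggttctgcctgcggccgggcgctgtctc
Sema6d: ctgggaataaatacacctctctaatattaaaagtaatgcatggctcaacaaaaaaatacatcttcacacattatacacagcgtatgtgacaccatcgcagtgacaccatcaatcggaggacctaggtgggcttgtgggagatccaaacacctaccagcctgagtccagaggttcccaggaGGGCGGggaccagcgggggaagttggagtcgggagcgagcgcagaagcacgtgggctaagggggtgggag
Sema7a had 2 GC boxes and 17 CpG in its window, and Sema6d had 1 GC box and 9 CpG in the window shown. A second RefSeq window of Sema6d, chr2:124653331-124653580, had 0 GC boxes, 6 CpG and 0 matches to the ACGTG motif described next. The core of the hypoxia response element, ACGTG on either strand, was searched because the cultures were held at 5% O2. The Sema6d window shown holds it at 1 site, whose letters CACGTG read alike on both strands, and the Sema7a window has 0. Of all windows, 16.6% hold it, and 7 of the 37 windows of the family (18.9%) do.

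Classes 5 and 6 are transmembrane ligands. Their 6 genes summed to 287 ± 14 on day 3, 466 ± 58.3 on day 7 and 574 ± 88.9 CPM on day 10, and on day 10, 3 of them were called higher than on day 3, 0 lower and 3 neither (all genes 29.5% higher, 27.2% lower). The mesenchyme marker sum was higher on the same days, though Tcf21, Tbx4 and Tbx5 of that list were lower. The part of these markers in the class 5 and 6 changes was not tested. Sema6d, a ligand of plexin A1, had the smallest adjusted p of the class 5 and 6 genes on day 10 against day 3. It stood at 89.2, 92.2 and 97.0 CPM on day 3, then 185, 161 and 238 on day 7 and 295, 246 and 274 on day 10. Each day lay above the day before it with no overlap. The log2 change of Sema6d on day 10 against day 3 was 1.55 (SE 0.13, adjusted p = 9.90e-06), and 1.07 (SE 0.13, adjusted p = 0.000191) was reached on day 7. Its last step, 0.48 (SE 0.13), missed the threshold at adjusted p = 0.0507 and passed it in 5 of 18 alternatives, among them without day 7 replicate 3 (0.0173).

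Sema5a, which carries thrombospondin repeats beside its sema domain, followed the same order. Its libraries held 59.1, 75.9 and 64.3 on day 3, 127, 90.2 and 124 on day 7 and 179, 117 and 217 CPM on day 10. Days 3 and 10 were separate and days 7 and 10 overlapped. The log2 change was 1.36 (SE 0.22, adjusted p = 0.000575) on day 10 against day 3 and 0.78 (SE 0.22, adjusted p = 0.0175) on day 7 against day 3. The earlier call of Sema5a was lost without day 3 replicate 1 (adjusted p = 0.0607), day 7 replicate 1 (0.0585) or day 7 replicate 3 (0.0522), and its step from day 7 to day 10 was called without day 10 replicate 2 (0.80, adjusted p = 0.0254).

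Sema6b, a ligand of class A plexins, stood at 3.48, 3.75 and 3.53 CPM on day 3, then 10.9, 8.89 and 6.91 on day 7 and 6.55, 7.61 and 18.6 on day 10. The tight day 3 libraries were below all others. The log2 change on day 10 against day 3 was 1.61 (SE 0.38, adjusted p = 0.00499), and 0.99 (adjusted p = 0.00180) without day 10 replicate 3, which held the highest value. On day 7 against day 3 the change of Sema6b was 1.31 (SE 0.38, adjusted p = 0.0197), lost without day 3 replicate 1 (adjusted p = 0.0561), day 3 replicate 3 (0.0517) or day 7 replicate 1 (0.0649).

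Sema6a, a ligand of plexins A2 and A4, was at 93.1, 100.1 and 88.9 on day 3, 113, 112 and 108 on day 7 and 81.6, 76.2 and 94.6 CPM on day 10. Day 7 was the highest, and days 3 and 10 overlapped. The rise on day 7 was small, a log2 change of 0.24 (SE 0.09, adjusted p = 0.0485), and missed the threshold in 14 of 18 alternatives, among them each omission of a day 3 or day 7 library (adjusted p = 0.0535 to 0.165). The fall of Sema6a from day 7 to day 10 was -0.40 (SE 0.09, adjusted p = 0.0230). Its adjusted p lay between 0.0501 and 0.0813 without any 1 of the day 7 libraries or without day 10 replicate 1 or 2. That call was also lost in a fit of the 2 days alone. The steps differed by -0.63 (SE 0.15, adjusted p = 0.0274), a call lost without day 3 replicate 1 or 3 or any 1 of the day 7 libraries (adjusted p = 0.0642 to 0.115). On day 10 against day 3 the change of Sema6a was -0.16 (adjusted p = 0.137), and -0.25 (adjusted p = 0.0165) without day 10 replicate 3.

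The remaining class 5 and 6 genes were not called on day 10 against day 3. Sema6c held 26.7, 27.7 and 27.2 CPM on day 3, then 42.5, 27.8 and 33.5 on day 7 and 28.4, 28.0 and 44.0 on day 10, with no overlap with day 3 on either later day. Its log2 change on day 10 against day 3 was 0.30 (95% interval -0.08 to 0.68, adjusted p = 0.212). Sema5b averaged 3.20 ± 0.695 CPM on day 10 and 3.04 ± 0.281 on day 3, a change of 0.07 with a 95% interval of -0.46 to 0.61.

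Class 4 summed to 235 ± 2.18 on day 3, 221 ± 3.69 on day 7 and 193 ± 12 CPM on day 10, and on day 10, 2 of its 6 genes were higher than on day 3 and 3 were lower (all genes 29.5% and 27.2%). Sema4c, a ligand of plexin B2, made up most of it. Its CPM were 178, 173 and 179.8 on day 3, 159, 175 and 171 on day 7 and 152, 138 and 137 on day 10. The day 10 libraries lay below those of both earlier days, which overlapped. The fall on day 10 against day 3 was small but exceeded the spread, with a log2 change of -0.32 (SE 0.07, adjusted p = 0.00271). Sema4b held 11.8, 8.91 and 11.3 CPM on day 3, then 14.1, 12.1 and 14.4 on day 7 and 20.2, 15.2 and 15.2 on day 10, and its levels did not overlap between days. The log2 change of Sema4b on day 10 against day 3 was 0.66 (SE 0.15, adjusted p = 0.00435).

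Sema4g, another ligand of plexin B2, was not called on day 10 against day 3, and this depended on the library and the method. It stood at 40.3, 46.0 and 43.2 on day 3, 40.6, 30.9 and 35.9 on day 7 and 23.9, 21.7 and 42.5 CPM on day 10. Day 10 replicate 3 fell within the day 3 range, and the other day 10 libraries lay below every library of days 3 and 7. The log2 change on day 10 against day 3 was -0.55 (SE 0.23, adjusted p = 0.0612), and -0.92 (adjusted p = 9.67e-05) for Sema4g without that library. With all 9 libraries it was called lower by DESeq2 (adjusted p = 0.0267), with scaling by library size alone (0.0350) and with the replicate block (0.0460).

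The other class 4 genes were low. Sema4a, known from immune cells, averaged 2.27 ± 0.524 CPM on day 10 and 1.01 ± 0.331 on day 3, a log2 change of 1.16 (SE 0.29, adjusted p = 0.00601). The 7 leukocyte markers summed to 6.39 to 9.17 CPM on day 3 and 3.08 to 6.65 CPM on day 10. Of the 4 tested, 0 were higher and 1 was lower (Laptm5) on day 10 than on day 3. Their part in the change of Sema4a was not tested. Sema4d, the ligand of plexin B1, averaged 1.47 ± 0.572 CPM on day 10 and 2.68 ± 0.378 on day 3, a log2 change of -0.89 (SE 0.28, adjusted p = 0.0197). On day 7 Sema4d was at 1.40 ± 0.0721 CPM. Its call on day 10 was lost without day 3 replicate 1 or 2 or day 10 replicate 2 or 3 (adjusted p = 0.0524 to 0.0661), and that on day 7 against day 3 (-0.94, SE 0.28, adjusted p = 0.0208) without day 3 replicate 1 or 2 or day 7 replicate 1 or 3 (0.0571 to 0.0721). Sema4f had 3 to 13 counts in the day 10 libraries and 9 to 28 in those of day 3, which overlapped. Its log2 changes of -1.33 (adjusted p = 0.0438) on day 10 and -1.88 (adjusted p = 0.0164) on day 7, both against day 3, were lost without day 3 replicate 1 (0.176 and 0.0746), and the day 10 call of Sema4f was lost in 12 of 17 alternatives, 7 of them omissions of 1 library.

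**Figure D3:**
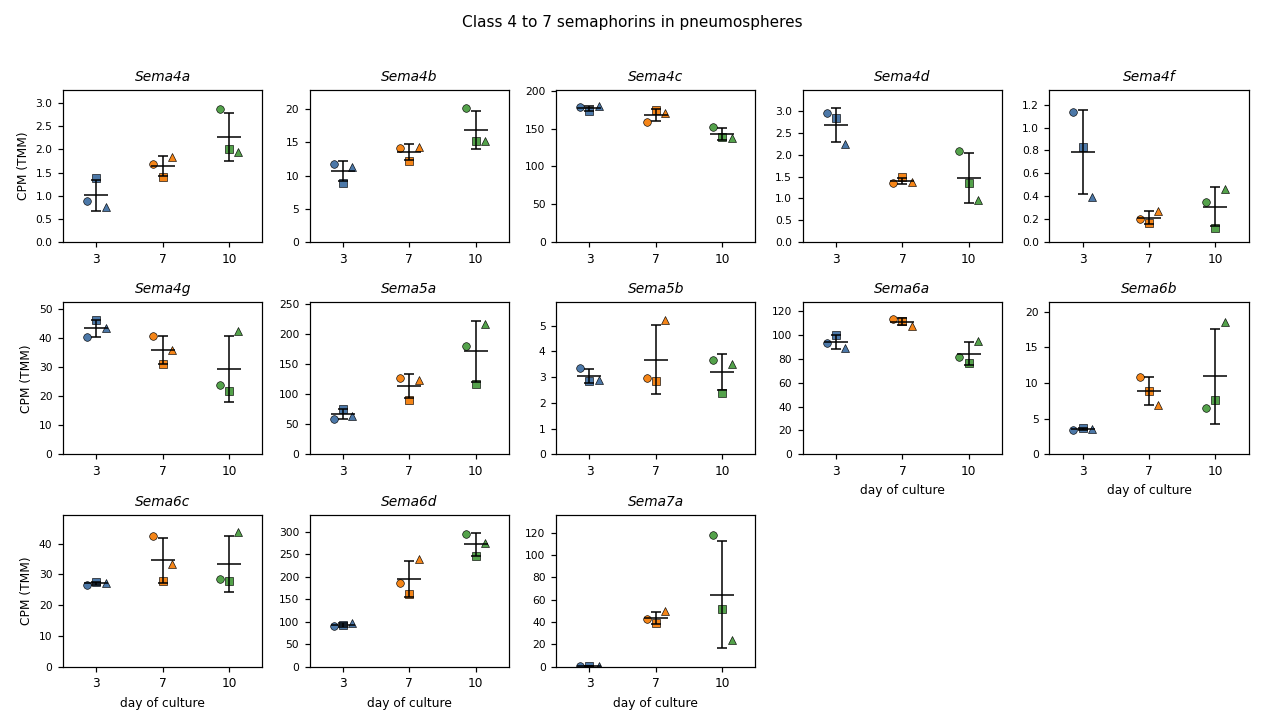
TMM-normalised CPM (vertical axis from 0, own scale per gene) of the 13 class 4 to 7 semaphorins are plotted against day of culture; circles, squares and triangles are replicates 1, 2 and 3, and the horizontal line with bars is the mean ± SD. Sema5a and Sema6d climb over the 3 days, Sema7a is near 0 on day 3 only, and the day 10 libraries of Sema4g, Sema6b and Sema7a are widely spread.

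Among the receptors, the 2 neuropilins moved in opposite directions. Nrp1, the co-receptor for Sema3a and for VEGF-A (chromosome 8, 128358591 to 128505476), stood at 416, 453 and 386 CPM on day 3, then 523, 457 and 469 on day 7 and 559, 643 and 634 on day 10. The day 10 libraries lay above those of both earlier days. Its log2 change on day 10 against day 3 was 0.55 (SE 0.09, adjusted p = 0.000655). The last step of Nrp1, 0.34 (SE 0.09), passed only narrowly (adjusted p = 0.0499) and missed the threshold in 13 of 18 alternatives, among them each omission of 1 library other than day 10 replicate 1 (adjusted p = 0.0540 to 0.174).

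Nrp2, the co-receptor for Sema3f and for VEGF-C (chromosome 1, 62703317 to 62818692), held 204, 219 and 159 on day 3, 102, 93.0 and 91.1 on day 7 and 44.3, 63.7 and 88.8 CPM on day 10. The 3 days did not overlap. The log2 change was -1.02 (SE 0.22, adjusted p = 0.00460) on day 7 and -1.56 (SE 0.22, adjusted p = 0.000264) on day 10, both against day 3. From day 7 to day 10 it was -0.54 (SE 0.22, adjusted p = 0.155), and -0.82 (adjusted p = 0.0219) for Nrp2 without day 10 replicate 3, the highest of that day. Per kilobase of exon, Nrp1 held 86.2% ± 1.12 of the neuropilin signal on day 3, 93.6% ± 0.153 on day 7 and 96.5% ± 0.993 on day 10 with basic exons. With comprehensive exons the shares of Nrp1 were 72.4%, 86.0% and 92.0%. Among the 8 endothelial markers, of cells in which both neuropilins are known to act, 0 were higher and 3 lower on day 10 than on day 3, and 1 was higher (Emcn) and 2 lower (Erg and Tek) on day 7 than on day 3, and their part in the neuropilin changes was not tested.

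The 9 plexins are the signalling receptors of the family. Their sum was 1306 ± 7.83 CPM on day 3, then 1318 ± 106 on day 7 and 1362 ± 119 on day 10. On day 10, 1 was called higher (Plxna1), 2 lower (Plxnb1 and Plxna4) and 6 neither, relative to day 3, where 29.5% of all genes were higher and 27.2% lower. Plxnb2, the receptor for Sema4c, held the largest share per kilobase on each day under both exon sets, 45.3% ± 2.14 on day 10 and 48.4% ± 0.473 on day 3 with basic exons. Its CPM were 577, 571 and 575 on day 3, 605, 552 and 572 on day 7 and 556, 530.0 and 567 on day 10. The 3 day 10 libraries lay just under those of day 3, and the log2 change of Plxnb2 was -0.06 (95% interval -0.20 to 0.08, adjusted p = 0.481).

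Plxna1, a signalling partner of the neuropilins and receptor for Sema6d, was at 255, 266 and 246 on day 3, 337, 287 and 342 on day 7 and 378, 324 and 414 CPM on day 10. Both later days lay above day 3 and overlapped each other. The log2 change was 0.54 (SE 0.10, adjusted p = 0.00134) on day 10 and 0.33 (SE 0.10, adjusted p = 0.0251) on day 7, both against day 3. The day 7 call of Plxna1 was lost without any 1 of the day 3 libraries or without day 7 replicate 1 or 3 (adjusted p = 0.0503 to 0.0877). Its gene model overlaps the predicted gene Gm40415, so reads from that stretch cannot be assigned with certainty.

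Plxnb1, the receptor for Sema4d, fell. It held 54.9, 52.5 and 54.8 CPM on day 3, then 33.7, 28.0 and 40.1 on day 7 and 28.6, 21.2 and 27.0 on day 10. Both later days lay below day 3. The log2 change was -0.67 (SE 0.14, adjusted p = 0.00353) on day 7 and -1.08 (SE 0.14, adjusted p = 0.000125) on day 10. Plxna4, a receptor for Sema3a and Sema6a best known from neurons, whose markers fell over these days, averaged 2.33 ± 1.88 CPM on day 10 and 6.24 ± 0.330 on day 3, a log2 change of -1.40 (SE 0.52, adjusted p = 0.0417). Its day 10 libraries were at 1.93, 0.680 and 4.38 CPM. Without the highest, replicate 3, the change of Plxna4 was -2.29 (adjusted p = 0.00143), and the call was lost without any 1 day 3 library, day 7 replicate 3 or day 10 replicate 1 or 2 (adjusted p = 0.0549 to 0.0956).

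Plxnc1, the plexin that binds Sema7a, dipped on day 7. It was at 67.2, 63.3 and 71.1 on day 3, 53.0, 32.1 and 53.6 on day 7 and 71.8, 80.9 and 86.9 CPM on day 10. The day 7 libraries lay below both other days, and day 10 lay above day 3. The fall on day 7 was -0.54 (SE 0.17, adjusted p = 0.0323) and the rise from day 7 to day 10 was 0.79 (SE 0.17, adjusted p = 0.0260). The steps differed by 1.33 (SE 0.31, adjusted p = 0.0298). Each of these Plxnc1 calls sat near the threshold. The first was lost without any 1 of the day 3 libraries (adjusted p = 0.0514 to 0.0835). The second was lost without day 10 replicate 2 (0.0548) or 3 (0.0517), and in a fit of the 2 days alone. The third was lost without any 1 of the day 3 libraries, day 7 replicate 1 or day 10 replicate 2 (0.0513 to 0.0635). On day 10 against day 3 the log2 change was 0.25 (95% interval -0.09 to 0.59, adjusted p = 0.243, and 0.0334 without day 7 replicate 2). Sema7a, its ligand, changed by 6.76 in that comparison.

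The other plexins gave no call on day 10 against day 3. Plxnd1, the receptor for Sema3e known from vessel patterning, was at 203, 213 and 219 CPM on day 3, then 209.9, 195 and 247 on day 7 and 210.2, 188 and 239 on day 10. The days overlapped, and the log2 change on day 10 against day 3 was 0.00 with a 95% interval of -0.21 to 0.22. Plxna3 held 112, 116 and 104 on day 3, 101, 79.7 and 104 on day 7 and 95.8, 82.4 and 106 CPM on day 10 (log2 change -0.22, 95% interval -0.45 to 0.01), and its change was -0.30 (adjusted p = 0.0471) without day 10 replicate 3. Plxna2 stood at 26.4, 25.8 and 23.7 CPM on day 3, then 24.5, 18.9 and 26.0 on day 7 and 23.7, 12.6 and 33.1 on day 10. Its day 10 libraries spread on both sides of day 3 (log2 change -0.13, 95% interval -0.68 to 0.42). Plxnb3 had 8 to 34 counts in any library. It was lower on day 7 than on day 3 (log2 change -1.18, SE 0.39, adjusted p = 0.0348), a call lost without day 3 replicate 1 or 2 or any 1 of the day 7 libraries (adjusted p = 0.0507 to 0.145), and the change of Plxnb3 on day 10 against day 3 was -0.90 (adjusted p = 0.0715), and -1.21 (adjusted p = 0.0120) without day 3 replicate 3.

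**Figure D4:**
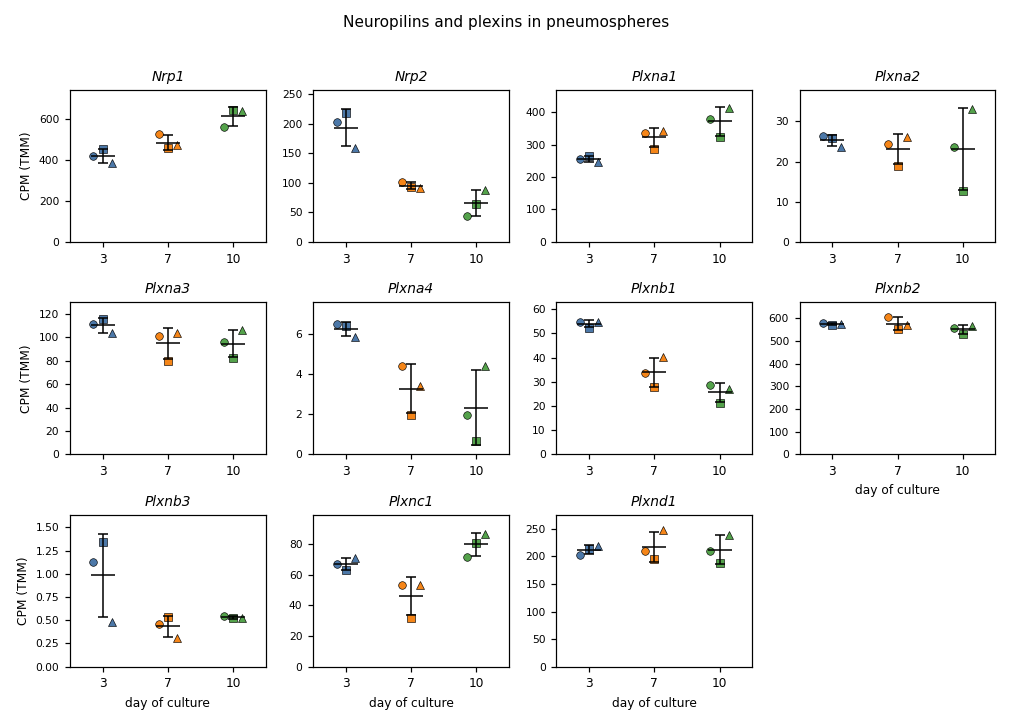
TMM-normalised CPM (vertical axis from 0, own scale per gene) of the 2 neuropilins and 9 plexins are plotted against day of culture; circles, squares and triangles are replicates 1, 2 and 3, and the horizontal line with bars is the mean ± SD. Nrp1 and Plxna1 climb, Nrp2 and Plxnb1 drop, Plxnc1 is lowest on day 7, and Plxnd1 overlaps between days.

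Genes that work with the family were counted from lists chosen with earlier results of these data known. Of 15 other semaphorin receptors and co-receptors, 12 were tested, and on day 10, 5 were higher and 4 lower than on day 3, with a median log2 change of 0.37. Of 32 plexin effectors, all tested, 8 were higher and 10 lower (median 0.05). Of 5 VEGF ligands that share the neuropilins, 2 were higher and 0 lower (median 0.63), and of 4 proprotein convertases, the enzymes that cut secreted semaphorins, 3 were higher and 0 lower (median 0.48). The background in this comparison was 29.5% higher and 27.2% lower, and the shorter lists hold too few genes to be read against it.

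Of the named partners, 4 fell on day 10 against day 3. L1cam, a neural adhesion molecule that joins neuropilin 1 in the Sema3a receptor, averaged 0.332 ± 0.142 CPM on day 10 and 11.4 ± 4.21 on day 3 (log2 change -5.06, SE 0.39, adjusted p = 4.32e-06). Kdr, the VEGF receptor that partners neuropilin 1 and one of the endothelial markers, averaged 12.8 ± 10.2 CPM on day 10 and 59.2 ± 10.8 on day 3 (-2.21, SE 0.56, adjusted p = 0.00922), and its call was lost without day 10 replicate 3, alone or together with day 3 replicate 2 (adjusted p up to 0.105). Crmp1, a collapsin response mediator that acts downstream of Sema3a in neurons, averaged 15.6 ± 5.19 CPM on day 10 and 47.4 ± 3.98 on day 3 (-1.61, SE 0.24). Pak1, a kinase downstream of Rac, averaged 8.50 ± 0.983 CPM on day 10 and 25.7 ± 0.282 on day 3 (-1.60, SE 0.13).

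The other 6 named partners rose on day 10 against day 3. Mical1, a monooxygenase that binds plexin A and takes apart actin filaments, averaged 136 ± 17.5 CPM on day 10 and 32.2 ± 1.11 on day 3 (log2 change 2.08, SE 0.09, adjusted p = 2.00e-07). Rras, a GTPase that plexins inactivate, averaged 91.0 ± 11.4 CPM on day 10 and 36.6 ± 2.44 on day 3 (1.31, SE 0.10), and Fes, a kinase that joins plexin A1, averaged 11.3 ± 2.36 and 4.31 ± 0.590 CPM on those days (1.39, SE 0.19). Itga1, an integrin partner of Sema7a, averaged 98.0 ± 21.1 CPM on day 10 and 37.1 ± 3.70 on day 3 (1.40, SE 0.15). Pgf, a neuropilin 1 ligand, averaged 15.9 ± 3.24 CPM on day 10 and 6.35 ± 0.368 on day 3 (1.32, SE 0.19). Pcsk6, a convertase, peaked on day 7 at 50.0 ± 3.49 CPM, between 6.48 ± 0.701 on day 3 and 18.5 ± 3.18 on day 10, and its step from day 7 to day 10 was -1.44 (SE 0.13, adjusted p = 0.00146).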

How the data were processed

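Poly(A) RNA of 9 pneumosphere libraries was analysed from 1 deposited table of raw read counts per Entrez gene ID, without normalisation. Per the submitters' processing notes, the authors counted reads with featureCounts on mm10. For the aligner, annotation, strand setting and multi-mapping reads, nothing is stated: they are not given in the sources used. IDs were named from RefSeq (25275 of 27179 IDs), and columns were matched to samples by name.

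Counts were fitted with edgeR 4.0.16 in R 4.3.3: filterByExpr kept 14940 genes, TMM factors scaled the libraries, and a robust quasi-likelihood fit of the 9 libraries (biological coefficient of variation 0.146) gave each pair of days and the difference between steps. Calls are adjusted p under 0.05 (Benjamini-Hochberg over all tested genes). Standard errors were derived from each log2 change and its F statistic, and intervals are 95% normal intervals from them. They are narrower than the quasi-likelihood test implies and can exclude 0 where it gives an unadjusted p over 0.05. For Plxna1 on day 10 against day 7 the interval was 0.007 to 0.409, with a quasi-likelihood p of 0.070. The script was tested on simulated counts. CPM are TMM-normalised. Shares of single genes within a class or family were taken per kilobase of GENCODE M21 exons, since the authors' annotation is not known. Sums of CPM over classes and marker lists were not corrected for length, so long genes weigh more in them. Without molecular identifiers reads are no independent molecules, so the floor describes counting error alone. No pair of replicates differed by as little as counting noise (chi-square per degree of freedom 8.05 to 127). Every member is accounted for, with each library's value where a day reached 10 CPM. Partner genes are named where called on day 10 against day 3, at least 2-fold and at 10 CPM on either day, at most 6 in each direction. The members and lists were chosen with earlier results of these data known. Alternatives were DESeq2 1.42.0, other scaling factors and filters, the replicate block, 2 days alone, and leaving out libraries.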

Additional observations from a re-analysis of the deposited data

How the results depend on the processing

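No result changed direction past the threshold in any alternative. On day 10 against day 3, 17 of 21 calls held in all 18 alternatives. Plxna4, Sema3g, Sema4d and Sema4f lost theirs in some. On day 7 against day 3, 8 of 16 held, on day 10 against day 7, 1 of 6 (Sema3f), and for the difference between steps 3 of 6 (Sema3a, Sema3d and Sema7a). The 2 members higher on day 10 than on day 7 became 5 with DESeq2, 1 with library size alone, 0 when only the 2 days were fitted and 0 without day 3 replicate 2 and day 10 replicate 3 together. The 4 lower became 1 when only the 2 days were fitted. Leaving out 1 library at a time gave 11 to 13 members higher and 6 to 11 lower on day 10 against day 3, 4 to 9 higher and 4 to 9 lower on day 7 against day 3, 1 to 2 higher and 1 to 6 lower on day 10 against day 7, and 3 to 8 whose steps differed. Calls gained without 1 library, beside those given above, were Sema4a (adjusted p = 0.0350, without day 3 replicate 2), Plxna4 (0.0427) and Sema6c (0.0451, both without day 10 replicate 3) on day 7 against day 3. On day 10 against day 7 they were Sema3g (0.0270) and Sema4g (0.00941), both without day 10 replicate 3, and Sema4c (0.0368, without day 10 replicate 1), and for the steps Sema3e (0.0424) and Sema6b (0.00696), both without day 10 replicate 3. The cause was not tested. Among all genes, the share of calls that were higher was 52.0% on day 10 against day 3 (43.5% with library size alone) and 51.8% on day 10 against day 7 (39.3%).

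With the replicate block the counts stayed at 12 higher and 9 lower on day 10 against day 3, 8 and 8 on day 7 against day 3, 2 and 4 on day 10 against day 7, and 6 for the steps, but not every call was the same. The block lost Sema4f (adjusted p = 0.0588) and gained Sema4g (0.0460) on day 10 against day 3, lost Sema6a (0.0721) and gained Sema4b (0.0443) on day 7 against day 3, and lost Nrp1 (0.0653) and gained Sema6d (0.0293) on day 10 against day 7. Same-numbered libraries deviated together with r between -0.0694 and 0.433, over 0.1 in 5 of 9 pairs, and differently numbered libraries with r between -0.356 and 0.221, over 0.1 in 2 of 18. No label names a culture or litter, but the deposited column names run consecutively through days 3, 7 and 10 within each replicate number. Not every same-numbered pair exceeded 0.1, and the main fit did not pair the samples. Pairing by number is possible, and the calls with the replicate block are those that allow for it. Not every library correlated best with its own number. Depth limits the low members, of which Plxnb3, Sema3b, Sema3e, Sema3g, Sema4f and Sema7a had under 15 counts in some libraries.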
